A study of Mus musculus with 6 samples.

Results

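The genes described here are 7 whose mutations are linked in people to inherited parkinsonism: Lrrk2, Park7, Pink1, Vps35, Fbxo7, Uchl1 and Dnajc6. They were taken by gene name from a table of 55098 genes, all 7 were found once, and all 7 were among the 17142 genes with enough counts to be tested. The table comes from RNA-seq of whole cerebella, taken from male mice on postnatal day 60. The KO group holds 3 libraries (KO 2, KO 4 and KO 6, numbered by animal) labelled as knock-outs of Slc39a14, the gene of the manganese, zinc and iron transporter ZIP14, and the WT group holds 3 libraries (WT 1, WT 3 and WT 5) labelled as wild type. By the title of the series, the KO line models manganese-induced dystonia and parkinsonism that begin in childhood. The mouse strain, the part of the gene that was removed and the cells in which it was removed are not given in the labels.

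These genes act in a few linked processes that keep neurons supplied with working mitochondria, membranes and proteins. PINK1 is a kinase that gathers on damaged mitochondria and starts their removal with the ubiquitin ligase parkin, and DJ-1, the product of Park7, guards cells against oxidative damage. FBXO7 is a substrate-binding part of SCF ubiquitin ligases that also binds a proteasome regulator, and UCHL1 is an abundant neuronal enzyme that frees ubiquitin. LRRK2 is a kinase of Rab proteins, VPS35 is the core of the retromer that sorts cargo out of endosomes, and DNAJC6, also called auxilin, strips clathrin from synaptic vesicles with the chaperone HSC70. In human disease these genes are best known for the loss of midbrain dopamine neurons, whereas granule and Purkinje neurons make up most of the neuronal RNA of the cerebellum.

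Library totals ran from 13912821 to 15754275 counts in KO and from 13805997 to 15788135 counts in WT. Markers of the labelled tissue were abundant: the 8 granule cell markers summed to 5502 to 5676 CPM (counts scaled to a common library size) in KO and 5697 to 6150 CPM in WT, and the 8 Purkinje cell markers to 6386 to 7483 CPM in KO and 5852 to 6614 CPM in WT. Of 6 markers of midbrain dopamine neurons and the brainstem, 3 were tested, and Hoxb3 and Hoxb5 had no count in any library. Slc39a14 itself averaged 42.3 ± 3.18 CPM across KO and 42.4 ± 1.33 CPM across WT (SD, 3 libraries each), so the labels could not be checked from its count. All 12 choroid plexus markers had a positive fold change and none passed, with sums of 1056 to 3291 CPM in KO and 442 to 1376 CPM in WT. All 10 interferon response markers were positive and 4 passed, with sums of 92.2 to 124 CPM in KO and 23.4 to 32.5 CPM in WT. In whole tissue, fewer cells of a type and less RNA per cell cannot be told apart.

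Promoter sequences are shown for Pink1 and Park7, the pair of members whose levels followed each other most closely over the libraries, and for Fbxo7, the member with the largest difference between the groups. Neither the likeness of that pair nor the difference of Fbxo7 passed after adjustment, as given below. Each run is the 250 bases before the start of a RefSeq transcript (GRCm38.p6), read 5′ to 3′ on the strand of the gene. Capitals mark matches, on either strand, to the core site of the factor NRF1, which is known for genes of mitochondria.
Pink1, chr4:138326297-138326546, minus strand: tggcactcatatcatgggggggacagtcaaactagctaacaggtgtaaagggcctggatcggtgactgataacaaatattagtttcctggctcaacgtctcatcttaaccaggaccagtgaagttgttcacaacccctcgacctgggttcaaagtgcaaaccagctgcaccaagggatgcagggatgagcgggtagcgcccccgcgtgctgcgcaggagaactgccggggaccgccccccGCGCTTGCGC
Park7, chr4:150909922-150910171, minus strand: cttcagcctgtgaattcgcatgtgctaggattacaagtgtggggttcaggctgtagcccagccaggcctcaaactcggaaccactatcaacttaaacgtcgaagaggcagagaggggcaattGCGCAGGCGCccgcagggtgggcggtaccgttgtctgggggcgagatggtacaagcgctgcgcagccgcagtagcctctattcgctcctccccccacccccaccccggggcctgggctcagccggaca
Fbxo7, chr10:86021679-86021928, plus strand: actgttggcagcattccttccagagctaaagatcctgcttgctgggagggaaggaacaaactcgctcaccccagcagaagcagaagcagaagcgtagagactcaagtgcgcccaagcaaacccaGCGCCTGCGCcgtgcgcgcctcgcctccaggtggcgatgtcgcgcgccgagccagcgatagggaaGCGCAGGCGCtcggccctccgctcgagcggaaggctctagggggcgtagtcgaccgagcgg

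The match lay 10 to 1 bases before the start in Pink1, 128 to 119 bases before it in Park7, and at 126 to 117 and 61 to 52 bases before it in Fbxo7. As counted here, the gene Park7 extends to 150914437, so its whole window lies inside the gene. Pink1 extends to 138326307, so its match lies inside that gene too. An NRF1 match was found in 3.74% of 32851 RefSeq windows of the same length. Among the members it was found only in these genes. The windows of Lrrk2, Uchl1 and Dnajc6 and the other Fbxo7 window held none. The window of Pink1 held 57.2% G and C, that of Park7 62.4% and that of Fbxo7 64.8%, against a median of 52.4% over all windows. Windows were matched for 6 of the 7 members, with 8 windows in all, and Vps35 is the other. On both strands of these windows 7 more motifs were searched. The interferon-stimulated response element (in 2.98% of all windows) was found in a second Fbxo7 window, 180 to 171 bases before a downstream start. As counted here, Fbxo7 begins at 86021972, so this match lies inside the gene. The heat shock element (0.466%) was found in Uchl1. The gamma-activated site (TTCNNNGAA, 7.02%), the antioxidant response element (TGACNNNGC, 10.2%), the E-box (CACGTG, 6.02%), the CLEAR element (0.240%), which contains the E-box, and the cAMP response element (TGACGTCA, 1.55%) were found in none of the member windows. A match is a run of letters only, and no binding was measured.

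Pink1 was the most abundant of the 7 transcripts per length, and Lrrk2 and Fbxo7 were the least abundant. In the deposited FPKM, which divide counts by gene length and library total, Pink1 averaged 111 ± 17.1 across KO and 108 ± 15.7 across WT (SD, 3 libraries each), above 98.9% of the tested genes. Uchl1 followed at 50.3 ± 2.91 FPKM in KO and 48.5 ± 8.65 in WT, and Dnajc6 at 42.3 ± 2.04 FPKM in KO and 43.6 ± 2.97 in WT. These neighbours overlapped, since Uchl1 ranged from 39.1 to 56.1 and Dnajc6 from 40.4 to 47.0 FPKM over the 6 libraries. Park7 stood at 25.4 ± 3.25 FPKM in KO and 26.4 ± 2.79 in WT. Vps35 stood at 17.6 ± 2.21 FPKM in KO and 18.1 ± 1.41 in WT, and no library of Vps35 reached the lowest library of Park7. Lrrk2 (6.24 ± 0.498 FPKM in KO and 6.42 ± 0.764 in WT) and Fbxo7 (6.72 ± 0.404 FPKM in KO and 5.99 ± 0.566 in WT) could not be ordered, with ranges of 5.68 to 7.20 and 5.60 to 7.18 FPKM. Even so, 57.7% of the tested genes lay below Lrrk2 and 57.8% below Fbxo7.

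**Figure D1:**
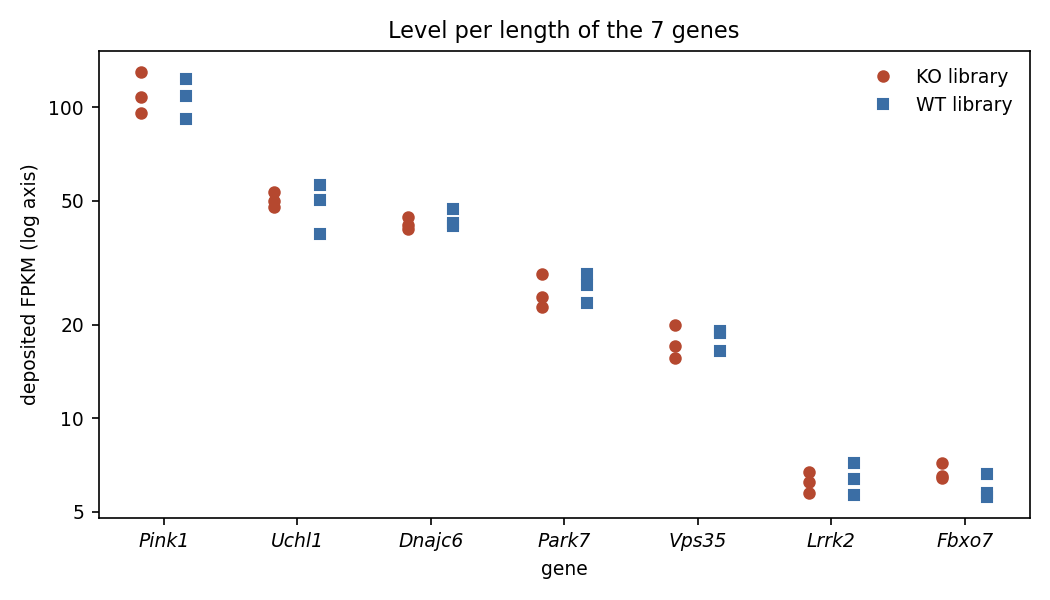
Deposited FPKM of the 7 genes on a log axis, with 1 point per library (KO circles left, WT squares right of each gene name). Pink1 lies above all others, Uchl1 and Dnajc6 overlap, and Lrrk2 and Fbxo7 overlap between 5.60 and 7.20 FPKM.

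Neither gene of mitochondrial quality control separated the genotypes. Pink1 (ENSMUSG00000028756, chromosome 4, 138313409 to 138326307, GRCm38.p6) was at 304, 270 and 365 CPM in KO 2, KO 4 and KO 6, and at 305, 344 and 254 CPM in WT 1, WT 3 and WT 5. KO 4 and WT 5 were the lowest libraries of their groups and KO 6 and WT 3 the highest, and the groups overlapped. Its log2 fold change, KO minus WT, was 0.06 (SE 0.14; 95% interval -0.26 to 0.37; adjusted p = 1.0 by Benjamini-Hochberg in the quasi-likelihood test of edgeR). Park7 (ENSMUSG00000028964, chromosome 4, 150897133 to 150914437) was at 64.4, 59.3 and 75.7 CPM in KO 2, KO 4 and KO 6, and at 69.5, 75.1 and 60.2 CPM in WT 1, WT 3 and WT 5. As for Pink1, KO 4 and WT 5 were the low libraries and KO 6 and WT 3 the high ones. The log2 fold change of Park7 was -0.04 (SE 0.13, 95% interval -0.32 to 0.24, edgeR adjusted p = 1.0).

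Of the ubiquitin genes, Fbxo7 had the largest difference of the 7 members, and it did not pass. Fbxo7 (ENSMUSG00000001786, chromosome 10, 86021972 to 86051873) was at 46.9, 41.9 and 42.6 CPM in KO 2, KO 4 and KO 6, and at 37.2, 36.2 and 42.5 CPM in WT 1, WT 3 and WT 5. KO was higher in 8 of the 9 pairings of a KO with a WT library, the exception being KO 4 against WT 5, so the groups overlapped by that pair. The means were 43.8 ± 2.73 CPM across KO and 38.6 ± 3.42 CPM across WT (SD, 3 libraries each), with a log2 fold change of 0.18 (SE 0.11, 95% interval -0.07 to 0.43, unadjusted p = 0.138 and edgeR adjusted p = 1.0). Uchl1 (ENSMUSG00000029223, chromosome 5, 66676091 to 66687234) was at 82.3, 85.7 and 91.8 CPM in KO 2, KO 4 and KO 6, and at 96.1, 85.6 and 66.2 CPM in WT 1, WT 3 and WT 5. The KO libraries lay close together, inside a WT range set by WT 1 at the top and WT 5 at the bottom. The log2 fold change of Uchl1 was 0.07 (SE 0.14, 95% interval -0.24 to 0.37, edgeR adjusted p = 1.0).

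Among the genes of vesicle and membrane traffic no difference passed the test. Lrrk2 (ENSMUSG00000036273, chromosome 15, 91673175 to 91816120) was at 71.8, 83.9 and 77.8 CPM in KO 2, KO 4 and KO 6, and at 70.5, 78.9 and 88.4 CPM in WT 1, WT 3 and WT 5. Vps35 (ENSMUSG00000031696, chromosome 8, 85260392 to 85299802) was at 161, 187 and 146 CPM in KO 2, KO 4 and KO 6, and at 175, 154 and 176 CPM in WT 1, WT 3 and WT 5. Dnajc6 (ENSMUSG00000028528, chromosome 4, 101496648 to 101642799) was at 253, 277 and 260 CPM in KO 2, KO 4 and KO 6, and at 263, 256 and 288 CPM in WT 1, WT 3 and WT 5. In all 3 genes KO 4 and WT 5 were the highest libraries of their group, the opposite of Pink1 and Park7, and the groups overlapped. The log2 fold changes were -0.03 for Lrrk2 (SE 0.11, 95% interval -0.28 to 0.23), -0.03 for Vps35 (SE 0.11, 95% interval -0.28 to 0.22) and -0.03 for Dnajc6 (SE 0.09, 95% interval -0.23 to 0.17), with an edgeR adjusted p of 1.0 each.

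**Figure D2:**
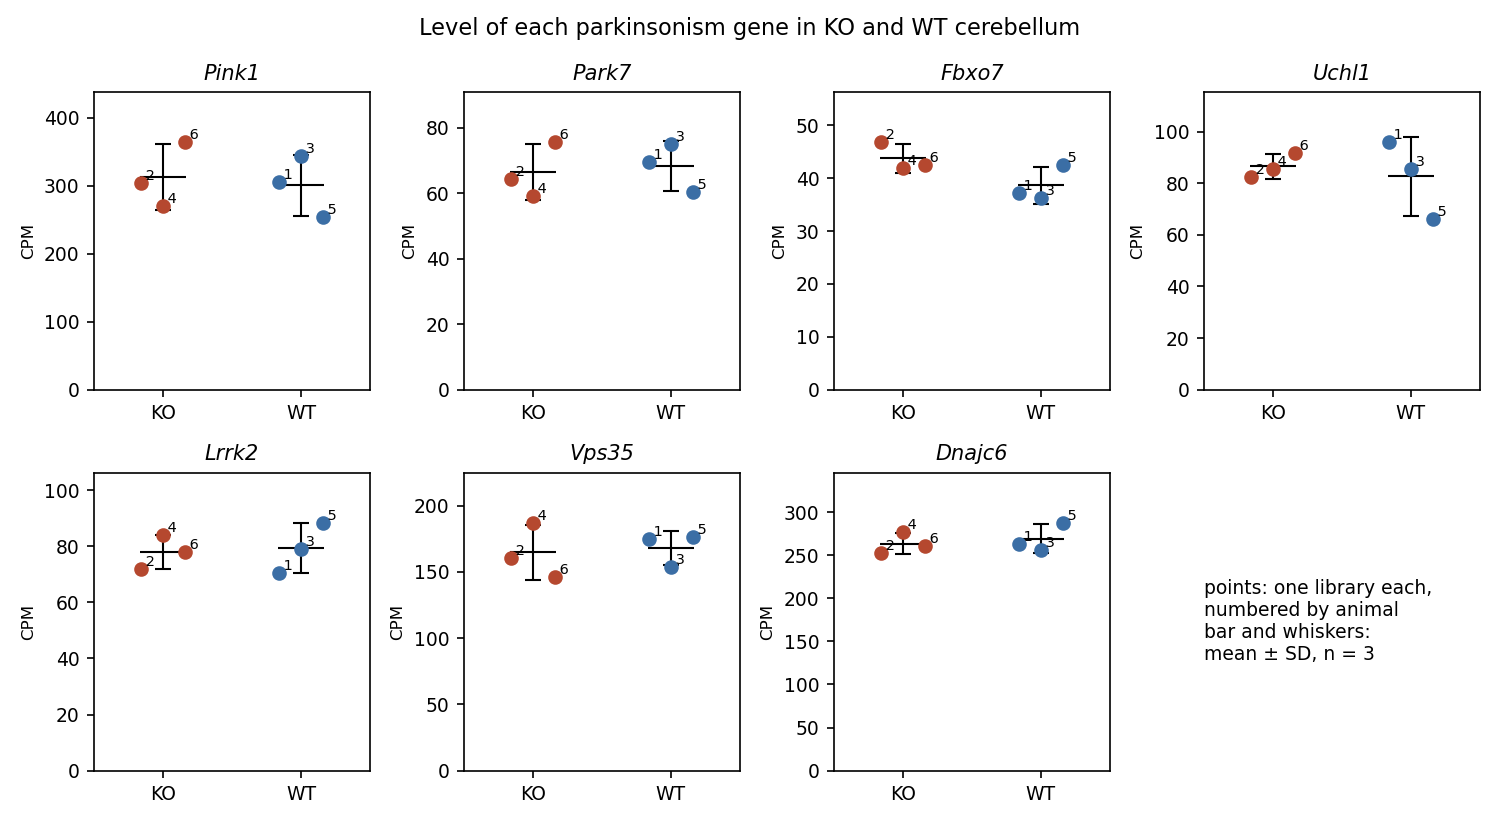
CPM of each gene in KO (left) and WT (right), 1 point per library numbered by animal, with mean ± SD (n = 3). The groups overlap in every panel, and Fbxo7 overlaps only through KO 4 (41.9 CPM) and WT 5 (42.5 CPM).

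None of the 7 members passed in the comparison of KO with WT (edgeR), where 0.0467% of all tested genes did. None had an unadjusted p under 0.05, against 2.75% of all tested genes (1.69% higher in KO and 1.06% lower), and in none did the groups fail to overlap, against 7.26%. DESeq2 and limma-voom called none of them either. Of the members 3 were positive and 4 negative, with a median log2 fold change of -0.03, beside -0.004 over all genes tested. In the authors' deposited table the log2 fold changes were 0.18 for Fbxo7, 0.07 for Uchl1, 0.06 for Pink1, -0.03 for Lrrk2, Vps35 and Dnajc6 and -0.04 for Park7, each with an adjusted p of 1.0. The intervals, taken per gene and without adjustment, give the range of differences compatible with these libraries. The largest upper bound, that of Fbxo7, is 35.1% above WT, and the bound farthest below WT is that of Park7 at -20.0%. These bounds do not give the size of difference that the adjusted test could have called, which was not tested. Single libraries decided the sign of the smaller differences. It turned for Lrrk2 without KO 2 (0.03) or WT 5 (0.06), for Park7 without KO 4 (0.04) or WT 3 (0.04), and for Pink1 without KO 6 (-0.07) or WT 5 (-0.05). It also turned for Vps35 without KO 6 (0.05), WT 1 (0.0003) or WT 5 (0.008), for Uchl1 without WT 5 (-0.07), and for Dnajc6 without KO 2 (0.0002) or WT 5 (0.02). Fbxo7 stayed between 0.13 and 0.29 in all 14 alternatives and passed in none.

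**Figure D3:**
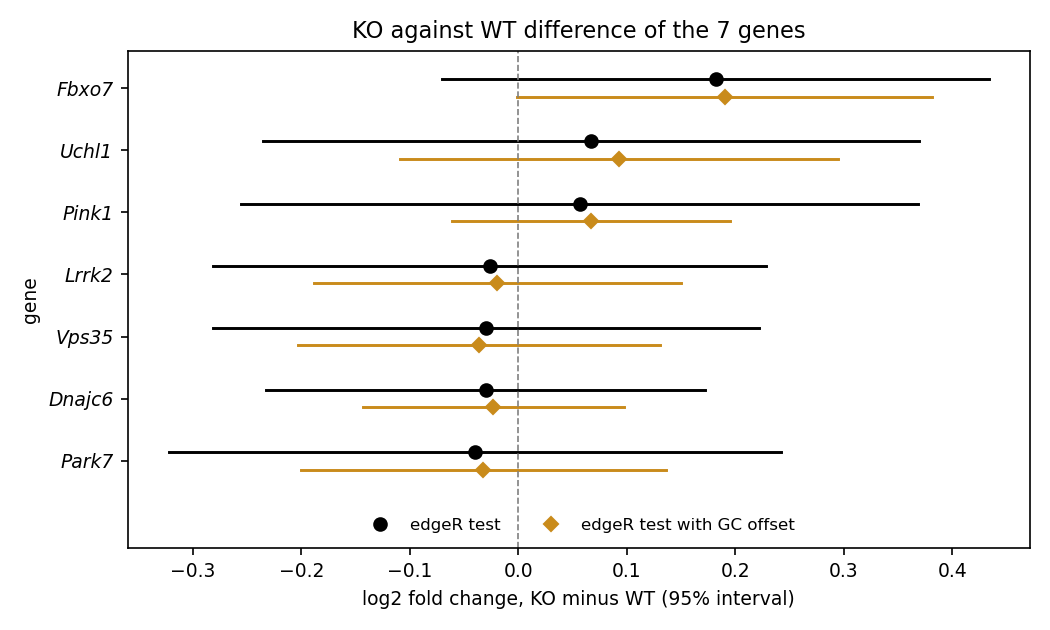
Log2 fold change, KO minus WT, of the 7 genes with 95% intervals, from the edgeR test (black circles) and from the same test with a GC offset (orange diamonds). Every interval includes 0, and the offset shortens the interval of Pink1 most, to -0.06 to 0.20.

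For all members but Fbxo7, the SD within groups on the log2 scale (0.08 to 0.22) was larger than the log2 fold change. KO 4 and WT 5 were the lowest libraries of all 6 for Pink1 and Park7, which was so for 28.4% of the 10525 genes of at least 10 CPM. They were the highest of all 6 for Lrrk2, Vps35 and Dnajc6, which was so for 23.4% of those genes. Both orders were common among expressed genes. The sign of the members' deviations in these libraries split by base composition: Vps35, Lrrk2, Fbxo7 and Dnajc6 have longest transcripts with 37.8%, 45.5%, 46.5% and 47.0% G and C, and Park7, Uchl1 and Pink1 have 52.9%, 56.8% and 59.0%. In WT 5 the members of lower GC all lay above their mean of 6 libraries, by 0.09, 0.17, 0.05 and 0.11 on the log2 scale, and those of higher GC lay at -0.15, -0.34 and -0.26. In KO 4 the same signs held except for Uchl1, at 0.03, with Vps35 at 0.17 and Pink1 at -0.17.

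Protein-coding genes at large moved the same way in the tertiles of highest and lowest GC. In the tertile of highest GC (above 52.8%, 3385 genes) the median deviation was -0.18 in KO 4 and -0.18 in WT 5, and between 0.03 and 0.15 in the other libraries. In the tertile of lowest GC (up to 46.3%) it was 0.14 in KO 4 and 0.14 in WT 5, and between -0.12 and -0.02 in the others. The middle tertile, which holds Fbxo7 and Dnajc6 near its lower bound, had medians of -0.03 in KO 4 and -0.01 in WT 5. Those signs are opposite to the deviations of Fbxo7 and Dnajc6. Length moved with the libraries too, with medians in genes under 2000 bases of -0.10 in KO 4 and -0.12 in WT 5. The share of counts from mitochondrially encoded genes was 4.54% in KO 4 and 3.92% in WT 5, against 2.88% to 3.35% in the others. The part of length and of mitochondrial reads in the members' pattern was not tested.

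When the curve of deviation on GC was subtracted in each library, most of the spread of Pink1 went with it. The SD within groups of Pink1 was 0.22 before and 0.07 after on the log2 scale, that of Park7 0.17 before and 0.09 after, and that of Dnajc6 0.08 before and 0.05 after. The other members kept more of theirs. Lrrk2 had an SD of 0.14 before and 0.10 after, and Vps35 of 0.15 before and 0.12 after, with WT 1 at 0.17 and WT 5 at -0.15 from the curve. Uchl1 had 0.20 before and 0.14 after, with KO 4 at 0.22 and WT 5 at -0.16 from the curve. Fbxo7 kept nearly all of it (0.11 before and 0.09 after). With this curve as an offset in the edgeR test, an alternative added after the data were seen, the log2 fold change of Pink1 was 0.07 (SE 0.06, 95% interval -0.06 to 0.20) and that of Dnajc6 -0.02 (SE 0.05, 95% interval -0.14 to 0.10). Fbxo7 was at 0.19 (SE 0.09, 95% interval -0.001 to 0.38, unadjusted p = 0.0507 and edgeR adjusted p = 0.919). None of the 7 passed with the offset, while 21 genes did over the whole table.

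**Figure D4:**
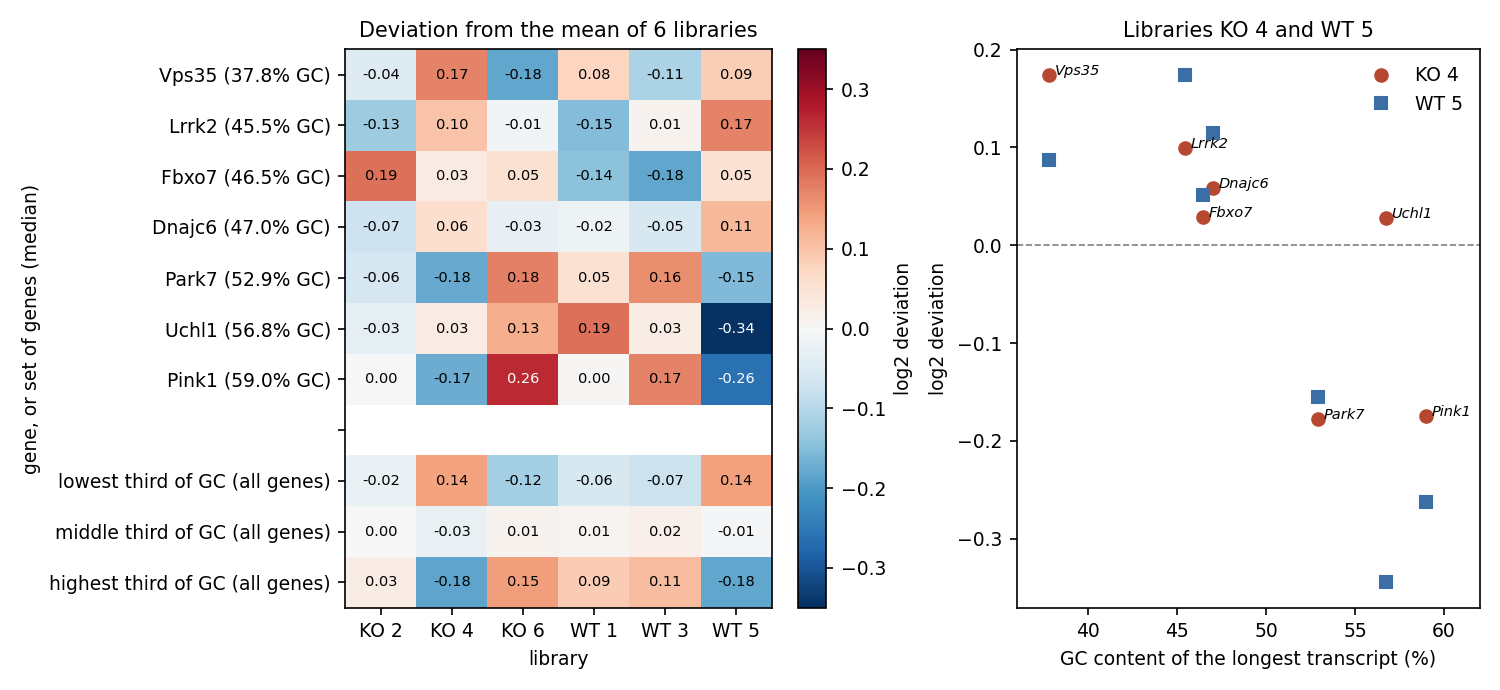
Left, log2 deviation of each gene (rows by GC content) from its mean of the 6 libraries (columns), with the medians of all protein-coding genes of at least 10 CPM by GC tertile below. Right, the deviation in KO 4 (circles) and WT 5 (squares) against GC content: Pink1 lies at -0.17 and -0.26, and Vps35 at 0.17 and 0.09.

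Over the 6 libraries, 21 pairs of members were compared on log2 CPM. The closest pair was Pink1 and Park7, with Pearson's r = 0.95 (exact permutation p = 0.0139, adjusted 0.262 over the 21 pairs) and Spearman's rho = 0.94 (exact permutation p = 0.0167, adjusted 0.175). Without KO 4 and KO 6, the libraries farthest from the median of Park7, r was 0.93. Vps35 ran opposite to both, with r = -0.89 to Pink1 (rho = -0.89; exact permutation p = 0.025 and 0.0333, adjusted 0.262 and 0.233) and r = -0.91 without KO 6 and WT 5. To Park7 its r was -0.84 (rho = -0.94; exact permutation p = 0.0542 and 0.0167, adjusted 0.268 and 0.175), and -0.63 without KO 4 and KO 6. No pair passed after adjustment. After the GC curve was subtracted, r was 0.35 for Pink1 and Park7 (rho = 0.31, exact permutation p = 0.475) and -0.44 for Pink1 and Vps35 (rho = -0.26, exact permutation p = 0.397), without adjustment. For Park7 and Vps35 the sign turned, to r = 0.46 (rho = 0.60, exact permutation p = 0.406). The 6 points of each pair share library, depth and GC dependence.

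Among 10159 other protein-coding genes of at least 10 CPM, the nearest pattern over the 6 libraries to that of Pink1 was Map3k11, a kinase of stress signalling (r = 0.996), and to that of Park7 it was Cotl1, an actin-binding protein (r = 0.995). For Vps35 it was Trdmt1, a tRNA methyltransferase (r = 0.992), for Dnajc6 Rpgrip1l, a protein of the primary cilium (r = 0.993), and for Lrrk2 Asap1, a regulator of Arf GTPases (r = 0.989). For Uchl1 it was Phb, a prohibitin of the inner mitochondrial membrane (r = 0.989), and for Fbxo7 Csf1, a growth factor of microglia (r = 0.983). These values have no test, since each gene was picked as the highest. Such likeness was common for Park7 and Pink1, with 872 and 772 genes at r over 0.9, and rare for Fbxo7, with 34.

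Around Pink1, genes of mitophagy did not pass in either direction. Of 42 entries 41 were tested, 21 were positive and 20 negative, with a median log2 fold change of 0.007, which turned to -0.007 without KO 2 or WT 5. Vdac1, the main pore of the outer mitochondrial membrane, was at 304 ± 2.87 CPM across KO and 301 ± 12.7 CPM across WT (SD over 3 libraries each; log2 fold change 0.01). Sqstm1, the autophagy receptor p62, was at 0.05 and Rhot1, a mitochondrial motor adaptor that PINK1 marks for removal, at -0.14 on the log2 scale. Of 25 antioxidant and glyoxalase genes related to DJ-1, 16 were positive and none passed (median 0.02, turning to -0.004 without KO 6 and -0.02 without WT 5). Sod2, the manganese superoxide dismutase of mitochondria, was at 197 ± 10.9 CPM across KO and 187 ± 17.2 CPM across WT (log2 fold change 0.08, SE 0.10). Gpx4 was at 0.003, and Hmox1, an enzyme of heme breakdown at low level here, at 0.49 (SE 0.26, unadjusted p = 0.0906 and edgeR adjusted p = 1.0).

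Around Fbxo7, the core of the SCF ligases and the 26S proteasome leaned one way by small amounts, and no member passed. Of 36 genes tested 31 were positive and 5 negative, beside 48.8% positive among all tested genes, with a median log2 fold change of 0.07. The median lay between 0.04 and 0.10 in all 14 alternatives, with 0.04 without WT 5 and 0.04 without KO 2. The mean log2 deviation of the list was 0.076, -0.025 and 0.037 in KO 2, KO 4 and KO 6. It was 0.017, -0.019 and -0.087 in WT 1, WT 3 and WT 5, so the groups overlapped. The genes of a list share these libraries, so their signs are not independent. Psmb6, a catalytic subunit, was at 58.4 ± 6.38 CPM across KO and 48.5 ± 4.13 CPM across WT (SD over 3 libraries each; log2 fold change 0.27, SE 0.12, unadjusted p = 0.0485 and edgeR adjusted p = 1.0). Skp1a, the SCF adaptor that FBXO7 binds, was at -0.02 and the base subunit Psmd2 at -0.02. Psmb5, the catalytic subunit farthest below 0 and named after its value was seen, averaged 32.3 ± 7.19 CPM across KO and 42.1 ± 6.71 CPM across WT, with overlapping groups and a log2 fold change of -0.39 (SE 0.18, unadjusted p = 0.0561 and edgeR adjusted p = 1.0). In 5 of the 36 genes (13.9%) the groups did not overlap, beside 7.26% of all tested genes.

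The interferon-inducible subunits of the proteasome were all positive and did not pass either. Of 5 genes of the immunoproteasome and its PA28 activator, 5 were positive with a median of 0.27. Psmb8, the subunit that takes the place of Psmb5, was at 1.45, 3.84 and 4.52 CPM in KO 2, KO 4 and KO 6, and at 0.653, 0.830 and 1.98 CPM in WT 1, WT 3 and WT 5. WT 5 lay above KO 2, so the groups overlapped (log2 fold change 1.50, SE 0.52, unadjusted p = 0.016 and edgeR adjusted p = 1.0). Psme1 was at 0.27 and Psmb10 at 0.23 on the log2 scale. The interferon response markers that moved with these groups are given above. The 8 microglia markers were all positive as well, with a median of 0.52 and none passing. They summed to 110 to 146 CPM in KO and 86.4 to 95.9 CPM in WT, without overlap. The sums of interferon response and granule cell markers did not overlap either. Nor did those of astrocyte and Bergmann glia markers (3824 to 3950 CPM in KO, 3666 to 3754 CPM in WT), while those of the other marker lists overlapped. The part of the interferon response and microglia markers in the immunoproteasome values was not tested. Around Uchl1, 14 of 15 ubiquitin genes and deubiquitinases were tested, 3 were positive and 11 negative with a median of -0.02, and none passed. The polyubiquitin gene Ubb was at -0.12 (SE 0.14), the activating enzyme Uba1 at -0.02 and Usp9x at -0.15 (SE 0.11). The median of this list turned to 0.01 without KO 4.

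Around Dnajc6, genes of the clathrin coat and of endocytosis leaned the other way. Of 37 genes tested 8 were positive and 29 negative, with a median of -0.05, and none passed. The median was -0.02 without KO 4, -0.08 without KO 6 and -0.08 without WT 5. The mean log2 deviation of the list was -0.021, -0.078 and 0.022 in KO 2, KO 4 and KO 6. It was 0.043, 0.037 and -0.003 in WT 1, WT 3 and WT 5, so the groups overlapped through KO 6 and WT 5. Hspa8, the HSC70 chaperone that auxilin recruits, was at 1300 ± 159 CPM across KO and 1240 ± 259 CPM across WT (SD over 3 libraries each; log2 fold change 0.07, SE 0.16). Dnm1 and Dnm3, dynamins that cut vesicles from the membrane, were at -0.08 (SE 0.14) and -0.16 (SE 0.11). The 8 granule cell markers also had negative fold changes, all 8 of them with a median of -0.10, and their part in this list was not tested. Around Vps35, 27 of 28 entries for the retromer, WASH complex and sorting nexins were found and tested, 16 were positive with a median of 0.03, and none passed. Washc2, a WASH complex subunit, was at 0.05 (SE 0.08), the sorting receptor Sorl1 at -0.15 (SE 0.09) and Ankrd50 at -0.19 (SE 0.10). This median turned to -0.03 without KO 4 and to -0.01 without WT 3.

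Around Lrrk2, 26 of 27 Rab substrates and partners were tested, 12 were positive with a median of -0.002, and none passed. The median lay between -0.04 (without WT 1) and 0.03 (without WT 5) when single libraries were left out. The scaffold Spag9, which binds phosphorylated Rab proteins, was at -0.03 and the 14-3-3 protein Ywhag at -0.10. Ezr, a membrane-to-actin linker that LRRK2 can phosphorylate, had the smallest p of the list, at 29.3, 40.3 and 28.6 CPM in KO 2, KO 4 and KO 6, and at 24.5, 23.9 and 16.7 CPM in WT 1, WT 3 and WT 5. The KO libraries all lay above the WT libraries (log2 fold change 0.59, SE 0.19, unadjusted p = 0.00999 and edgeR adjusted p = 1.0). Groups that did not overlap were found in 1 of the 26 genes (3.85%), beside 7.26% of all tested genes. The highest and lowest libraries of Ezr, KO 4 and WT 5, were also those with the highest and lowest sums of choroid plexus markers, 3291 and 442 CPM, and the part of that tissue in Ezr was not tested. Of 28 other genes of inherited parkinsonism 27 were tested, 14 were positive with a median of 0.009, and none passed at an adjusted or an unadjusted p under 0.05. This median turned to -0.01 without KO 6. Psap, the precursor of lysosomal saposins, was at 0.03 (SE 0.11), Mapt, the gene of tau, at -0.06 (SE 0.10) and Th, the rate-limiting enzyme of dopamine synthesis, at 0.55 (SE 0.28). The level of Th was low, at 6.08 ± 0.964 CPM across KO and 4.14 ± 1.43 CPM across WT (SD, 3 libraries each). Its groups overlapped, with KO 6 at 5.03 and WT 1 at 5.08 CPM, and WT 5 was lowest at 2.49 CPM.

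**Figure D5:**
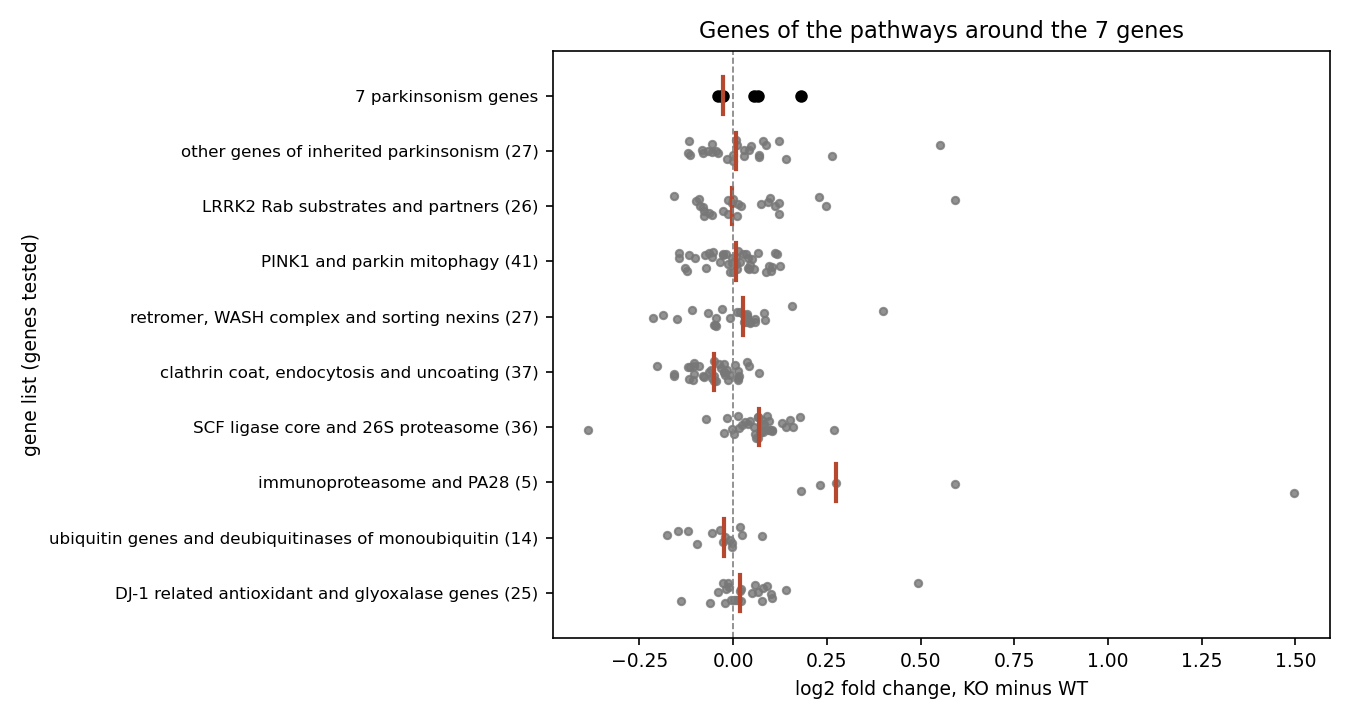
Log2 fold change, KO minus WT, of the 7 genes (black) and of every tested gene in 9 lists around them (grey), with the median of each list as a red bar. Medians lie between -0.05 and 0.07 except that of the 5 immunoproteasome and PA28 genes at 0.27.

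Counts of some members touch those of overlapping genes. Vps35 shares 171 bases with Orc6 on the opposite strand, which had 230 to 376 counts against 2039 to 2682 for Vps35, and since no source used here says whether counting was by strand, reads in that stretch are uncertain. Uchl1 shares 408 bases with Uchl1os, its antisense RNA, which had 0 to 6 counts per library, and Fbxo7 shares 358 bases with the antisense gene A230060F14Rik, which had 0 to 11. Small RNA genes lie inside Pink1, Fbxo7 and Dnajc6 with 0 to 11 counts. Lrrk2 and Park7 overlap no listed gene. At the lowest count of a member, 512 for Fbxo7 in WT 1, counting error was 4.42%.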

How the data were processed

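Per the labels' protocols, RNA was isolated with TRIZOL and a company prepared the libraries in house. The submitters' processing notes list HISAT2, DESeq2 and GRCm38.p6 without giving versions, and no source used here names the counting program or strand setting. The deposited counts are whole numbers per gene and library, not normalized. The deposited FPKM are these counts per length and library total, made by the authors. The authors' group means are a signal of normalized counts and were not used. The authors' deposited table also holds their own log2 fold change and p-value for KO over WT.

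Groups came from sample titles, and each animal gave 1 library. The main test was the quasi-likelihood F test of edgeR 4.0.16 (R 4.3.3) on the counts, with TMM, filterByExpr and Benjamini-Hochberg adjustment over 17142 genes, and calls at an adjusted p under 0.05. Standard errors were taken as the size of the log2 fold change divided by the square root of F. CPM are TMM-normalized. Deviations are log2 CPM (prior count 2) minus the mean of the 6 libraries. GC content is that of the longest GENCODE transcript (GRCm38), and promoters are from RefSeq tables. Alternatives included DESeq2 1.42.0 and limma 3.58.1, and the fit was tested on simulated data. Correlations used scipy 1.17.1 in Python 3.11.15. Genes named around the members were, in each list, the 2 of highest mean CPM and the 1 of smallest p, and for each member the protein-coding gene of highest Pearson's r. The members and lists were chosen with earlier results of these data known. With 3 libraries per group, the edgeR p-values set each difference against the spread between these animals, which the fit moderates with that of the other genes. Counting errors cover counting only.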

Additional observations from a re-analysis of the deposited data

How the results depend on the processing

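No member passed in any of the 14 alternatives. The number of genes called over the whole table, 8 in the edgeR test, moved to 142 without the low-count filter, 38 by DESeq2, 40 with WT 5 and KO 4 both left out and 21 with the GC offset, and ranged from 0 to 28 with single libraries left out (0 without WT 1 or WT 3, 28 without WT 5). The cause was not tested. With single libraries left out the log2 fold changes ranged from -0.10 to 0.061 for Lrrk2, -0.14 to 0.040 for Park7, -0.068 to 0.17 for Pink1, -0.13 to 0.049 for Vps35, -0.067 to 0.19 for Uchl1 and -0.063 to 0.025 for Dnajc6, all crossing 0, and from 0.13 to 0.26 for Fbxo7. With WT 5 and KO 4 both left out Lrrk2 turned to 0.0033 and Uchl1 to -0.059. Fbxo7 was then at 0.29 (unadjusted p = 0.0219, edgeR adjusted p = 1.0). Without the filter 1 gene passed in each of the LRRK2 and immunoproteasome lists. Under the other normalizations, filters and tests all 7 kept their sign. No paired analysis was possible because KO and WT animals share no number. The GC offset was chosen after the data were seen.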
